A study of Homo sapiens with 6 samples.

Results

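The 7 genes described here encode chemokines: CXCL1, CXCL2, CXCL3, CXCL8, CXCL16, CCL2 and CCL20. They were chosen on the lower levels of CXCL1 and CXCL8 with rebastinib (Reb), so every value of the Reb experiment is given as a description, with no test. All 7 were found by symbol among the 41471 gene symbols of the knockdown table and the 34157 of the Reb table. RNA was sequenced from MDA-MB-231, an established human triple-negative breast cancer line with a mesenchymal-like phenotype, in 2 experiments of 3 libraries each. In the first, the cells carried a stable lentiviral hairpin, either a scramble shRNA or 1 of 2 hairpins against the kinase CDK16 (CDK16-sh1 and CDK16-sh2). In the second, the cells received DMSO, Reb at 1 µM or Reb at 5 µM, each for 48 h. Reb is a switch-control kinase inhibitor, first developed against a drug-resistant BCR-ABL1 mutant, that also acts on other kinases such as TIE2. The study used it as an inhibitor of CDK16. Each condition had 1 library, so no difference between 2 libraries has a replicate check. Whether the hairpin lines were pools or clones is not given in the sources used here.

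Chemokines are small secreted proteins that guide migrating cells through G protein-coupled receptors. CXCL1, CXCL2, CXCL3 and CXCL8 carry the ELR motif, bind the receptor CXCR2 and attract neutrophils, and their genes lie in a cluster on chromosome 4. CCL2 attracts monocytes through CCR2, CCL20 acts on CCR6, and CXCL16 is made as a transmembrane protein that binds CXCR6 and can be shed by ADAM10. NF-kB and AP-1 factors are known to drive transcription of many of these genes, and AU-rich elements in the 3′ ends of their mRNAs are known to shorten mRNA life. Basal-like breast cancer lines are known for high CXCL1 and CXCL8.

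CXCL1, CXCL2 and CXCL3 share much of the sequence just upstream of their RefSeq starts, and CXCL8, on the same chromosome, shares less. The stretches are shown as a description of sequence, and whether they bear on the levels with Reb was not tested. RefSeq promoters (GRCh38.p14, 250 bases before to 50 after the start) were matched for 5 of the 7 genes, CXCL1, CXCL2, CXCL3, CXCL8 and CCL20. The start, here and in the positions below, is that of RefSeq. The deposited gene models of CXCL2, CXCL3 and CXCL8 begin further upstream, so parts of their stretches lie inside those models. The stretches from 140 bases to 1 base before the RefSeq start follow, 5′ to 3′ on the strand of the gene. They lie at chr4:73869253-73869392 (plus strand) for CXCL1, chr4:74099196-74099335 (minus) for CXCL2, chr4:74038690-74038829 (minus) for CXCL3 and chr4:73740429-73740568 (plus) for CXCL8. Capitals mark matches to GGNNNTTCC, an NF-kB-type motif, or to TGANTCA, the AP-1 motif, on either strand.
CXCL1: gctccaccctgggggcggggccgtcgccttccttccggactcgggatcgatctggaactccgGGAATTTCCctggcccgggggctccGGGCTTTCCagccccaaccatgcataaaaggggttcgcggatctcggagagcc
CXCL2: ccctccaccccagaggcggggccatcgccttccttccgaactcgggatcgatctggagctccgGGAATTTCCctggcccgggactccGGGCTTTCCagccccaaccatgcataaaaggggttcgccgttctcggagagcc
CXCL3: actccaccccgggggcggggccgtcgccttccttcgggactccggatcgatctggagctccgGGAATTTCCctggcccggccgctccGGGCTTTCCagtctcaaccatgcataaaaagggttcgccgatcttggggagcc
CXCL8: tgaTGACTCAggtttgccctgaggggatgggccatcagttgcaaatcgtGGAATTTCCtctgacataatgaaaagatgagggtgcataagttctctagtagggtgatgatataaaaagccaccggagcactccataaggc

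Aligned from end to end, the CXCL1 stretch was 91.5% identical to that of CXCL2 and 90.7% to that of CXCL3, and CXCL2 and CXCL3 were 87.9% identical. The CXCL8 stretch was 43.5% to 46% identical to the others. CXCL1, CXCL2 and CXCL3 each held 2 matches to the NF-kB-type motif in the 250 bases before the start, the nearer one from base −53 to −45 in all of them. CXCL8 held 1, from −91 to −83, and an AP-1 match from −137 to −131. CCL20 held 1 NF-kB-type match, on the antisense strand from −79 to −71, so that 5 of 5 matched promoters had at least 1, against 17.1% of all 35116 promoters over the same length. AP-1 was matched in 6.57% of all promoters and in 1 of the 5. The C/EBP-type motif TTGCNNAA was matched in 9.05% of all promoters and in CXCL2 alone among the 5, from −188 to −181. A match required every fixed letter. The CXCL8 stretch holds ttgcaaat, which misses this motif by 1 base, so the lack of a match does not show that CXCL8 has no such site.

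The 3′ untranslated regions of the same genes were rich in the pentamer ATTTA, the core of AU-rich elements. In GENCODE 29 models, CXCL2 had 10 pentamers (13.9 per kb), CXCL3 had 7 (10.4 per kb), CXCL8 had 9 (7.19 per kb), CXCL1 had 5 (7.08 per kb) and CCL20 had 3 (6.65 per kb). The median of 17837 genes was 1.58 per kb. CCL2 had 1 pentamer (2.66 per kb) and CXCL16 had 1 (1.02 per kb). The nonamer TTATTTATT, found in 8.05% of genes, occurred 3 times in CXCL1, 5 times in CXCL2, and once each in CXCL3 and CXCL8. These matches are a description of sequence and were not related to the measured levels.

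The libraries held 25838443 to 31955119 counts in the knockdown experiment and 37655548 to 50303269 in the Reb experiment. CDK16, the targeted gene, had 3223 counts with scramble, 1360 with CDK16-sh1 and 846 with CDK16-sh2, log2 fold changes of −1.52 and −1.82. The 5 µM library stood apart from the others, with 16.4% of its counts on mitochondrial transcripts, against 7.19% with DMSO and 8.30% at 1 µM. In CDK16-sh2 that share was 16.2%, against 11.3% with scramble. With library totals in place of TMM factors, all genes shifted by a median of −0.69 (log2) at 5 µM and by −0.20 in CDK16-sh2, so fold changes below are relative to the scaling used. Of 6 genes fixed as high (mesenchymal) markers, VIM, CD44 and AXL were high in all 6 libraries. Of 6 genes fixed as low markers, ESR1, PGR and CDH1 had 0 to 53 counts. The other low markers passed the filter, with 996 to 3396 counts for ERBB2, 125 to 408 for EPCAM and 73 to 390 for GATA3. SPARC, fixed as a high marker, had 1 to 15 counts in the hairpin experiment and 283 to 1970 in the Reb experiment. The other high markers, S100A4 and CAV1, had 320 to 2700 and 607 to 5911 counts. S100A4 was at 5.49 CPM with DMSO, below the 58.2 of ERBB2. Among 8 leukocyte markers, only CD68 exceeded 100 counts outside the 1 µM library, and the summed level was 198 to 716 CPM. Endothelial and fibroblast markers summed to 15.3 to 31.2 CPM, with DCN at 0 in the knockdown libraries. With DMSO, 5 of the 7 present in that table exceeded 1 CPM. COL1A1 had 861 counts there, PDGFRB 417, PECAM1 154, TEK (TIE2) 142 and CDH5 122. At 1 µM these had 1279, 301, 53, 174 and 24 counts, and at 5 µM 413, 35, 4, 8 and 11. In the 1 µM library LYZ had 130 counts against 8 with DMSO, and PTPRC had 35 against 2. The part of these shares and markers in the results below was not tested.

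CPM, the count scaled to a common library size with TMM factors, is used for levels of 1 gene across libraries, and the deposited RPKM, which is per length, for comparisons between genes. A log2 fold change is the difference in log2 CPM with a prior count of 2. Its interval is a 95% Clopper-Pearson interval of the share of the counts of 2 libraries and covers counting error only, since reads are not independent molecules and biological spread was not measured. Genes were counted where the 3 libraries of an experiment averaged 1 CPM or more, which 6 of the 7 chemokines passed in the knockdown experiment and 5 in the Reb experiment. CCL20 passed in neither, and CXCL16 not in the Reb experiment. A 2-fold difference is the size called here. In bulk RNA, fewer cells that express a gene and less RNA per cell cannot be told apart.

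**Figure D1:**
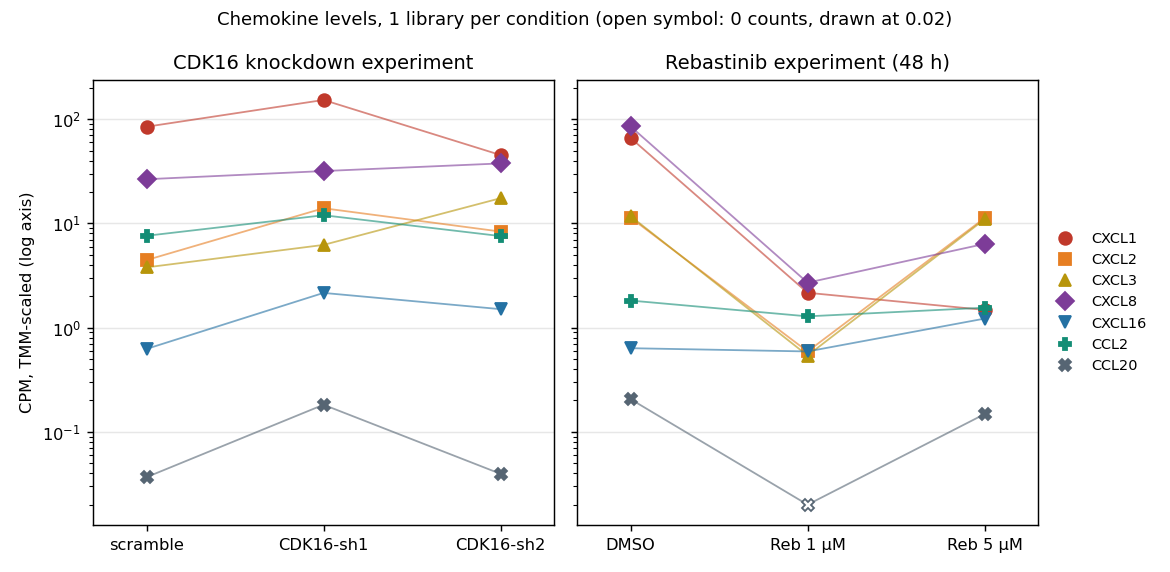
TMM-scaled CPM on a log axis for each chemokine in the 3 libraries of each experiment, 1 point per library joined by lines, with 0 counts drawn as an open symbol at the foot of the axis. CXCL1, CXCL2, CXCL3 and CXCL8 are low together at 1 µM, and CXCL2 and CXCL3 are back near their DMSO level at 5 µM.

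With DMSO, the ELR+ chemokines of chromosome 4 were the most abundant. CXCL1 was highest at 59.1 RPKM, followed by CXCL8 at 43.4, CXCL2 at 8.77 and CXCL3 at 6.13. CCL2 had 1.06 RPKM, CXCL16 had 0.263 and CCL20 had 0.178. The order of CXCL16 and CCL20 lay within counting error, with a ratio of 1.48 (95% interval 0.756 to 3.12), and no other neighbours in the DMSO order did. The 7 levels summed to 119 RPKM with DMSO, 5.22 at 1 µM and 12.7 at 5 µM. RPKM scales by library totals and not by TMM factors, which places the 5 µM library lower. These sums are therefore not on the scale of the CPM values.

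CXCL1 (chr4:73869393-73871242, plus strand, GRCh38) had 3853 counts with DMSO, 128 at 1 µM and 40 at 5 µM, or 66.1, 2.16 and 1.48 CPM. Both treated libraries were far below DMSO, by log2 fold changes of −4.91 (interval −5.20 to −4.68) and −5.44 (−5.97 to −5.03). CXCL8, also known as interleukin-8 (chr4:73740506-73743716, plus strand), had 4967, 160 and 172 counts, or 85.2, 2.70 and 6.36 CPM. Its log2 fold changes were −4.96 (−5.22 to −4.75) and −3.74 (−3.97 to −3.52). Thus both genes that chose the group were low at both doses. CXCL8 was higher at 5 µM than at 1 µM by 1.22 on the log2 scale (0.92 to 1.56), or 0.49 by library totals, whereas CXCL1 was lower, at −0.53 (−1.10 to −0.02), or −1.25 by library totals.

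CXCL2 and CXCL3 differed from them at the higher dose. CXCL2 (chr4:74097035-74099293, minus strand) had 662 counts with DMSO, 35 at 1 µM and 304 at 5 µM, or 11.4, 0.590 and 11.2 CPM. CXCL3 (chr4:74036589-74038807, minus strand) had 684, 32 and 296 counts, or 11.7, 0.540 and 10.9 CPM. At 1 µM they were below DMSO by −4.17 (−4.80 to −3.77) and −4.34 (−5.00 to −3.93). At 5 µM their values against DMSO were −0.01 (−0.22 to 0.18) and −0.10 (−0.30 to 0.10), or −0.70 and −0.79 when scaled by library totals. Set directly against the 1 µM library, the 5 µM library was higher by 4.16 (3.74 to 4.80) for CXCL2 and by 4.24 (3.81 to 4.92) for CXCL3, or 3.43 and 3.51 by library totals.

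Ratios within a library do not depend on the scaling. The RPKM ratio of CXCL2 to CXCL1 was 0.148 with DMSO (counting interval 0.136 to 0.161), 0.236 at 1 µM (0.158 to 0.346) and 6.57 at 5 µM (4.71 to 9.37). CXCL2 was thus below CXCL1 in the first pair of libraries and above it in the last. The ratio of CXCL3 to CXCL2 was 0.698 (0.627 to 0.778), 0.618 (0.370 to 1.03) and 0.658 (0.559 to 0.775), with all 3 intervals overlapping. The ratio of CXCL1 to CXCL8 was 1.36 (1.30 to 1.42), 1.40 (1.10 to 1.78) and 0.408 (0.282 to 0.578). At 5 µM the order of levels was accordingly CXCL2, CXCL3, CXCL8 and CXCL1. CXCL1 and CCL2, next to each other there, had a ratio whose interval, 0.922 to 2.31, included 1. At 1 µM the neighbours CXCL2 and CXCL3 (interval of the ratio 0.973 to 2.70) and CXCL3 and CXCL16 (0.690 to 1.91) did not differ beyond counting error.

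CXCL1, CXCL2 and CXCL3 are close paralogs, and reads from identical stretches could have been split between them or left uncounted. Of the 50-base stretches in GENCODE 29 transcripts of CXCL2, 3.88% also occurred in CXCL1 and 8.99% in CXCL3, and CXCL8 shared none with the other 6 genes. How reads that fit several genes were counted is not given in the sources used here.

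The other 3 chemokines had low counts in the Reb libraries. CCL2 (chr17:34255218-34257203, plus strand) had 106, 76 and 42 counts, or 1.82, 1.28 and 1.55 CPM, with log2 fold changes of −0.49 (−0.95 to −0.06) and −0.22 (−0.78 to 0.30). CXCL16 (chr17:4733526-4739922, minus strand) had 37, 35 and 33 counts. Its values were −0.10 (−0.81 to 0.60) at 1 µM and 0.90 (0.22 to 1.66) at 5 µM, or 0.24 by library totals, under a mean of 1 CPM. CCL20 (chr2:227813842-227817564, plus strand) had 12 counts with DMSO, 0 at 1 µM and 4 at 5 µM. Against a floor of 3 counts for the library at 0, it was 4.07-fold lower at 1 µM than with DMSO. The counting interval of its log2 fold change had an upper limit of −1.50. Exons of CXCL16 overlap those of MED11 on the opposite strand. The kit was stranded, but whether counting used strand is not given in the sources used here, so reads of these 2 genes may be mixed.

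At 1 µM, 4 of the 5 chemokines that passed the filter were at least 2-fold below DMSO, against 1.92% of all 15655 genes tested, and 0 were at least 2-fold higher, against 1.28%. At 5 µM, 2 of 5 were lower, against 27.2% of all genes, and 0 were higher, against 23.6%. These are the contrasts on which the group was chosen, and nothing is read from them. The median of the 5 was −4.34 at 1 µM, with a median of all genes of 0.0016, and −0.22 at 5 µM, with −0.07 for all genes. Both doses share the same DMSO library. Of the 8 genes that were at least 16-fold lower at 1 µM in that comparison, CXCL8, CXCL1, CXCL3 and CXCL2 were 4, which follows in part from how the group was chosen. The others were CTD-3128G10.7, CSF3 (the granulocyte growth factor G-CSF), MUC2 and IL6, named here after their values were seen.

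**Figure D2:**
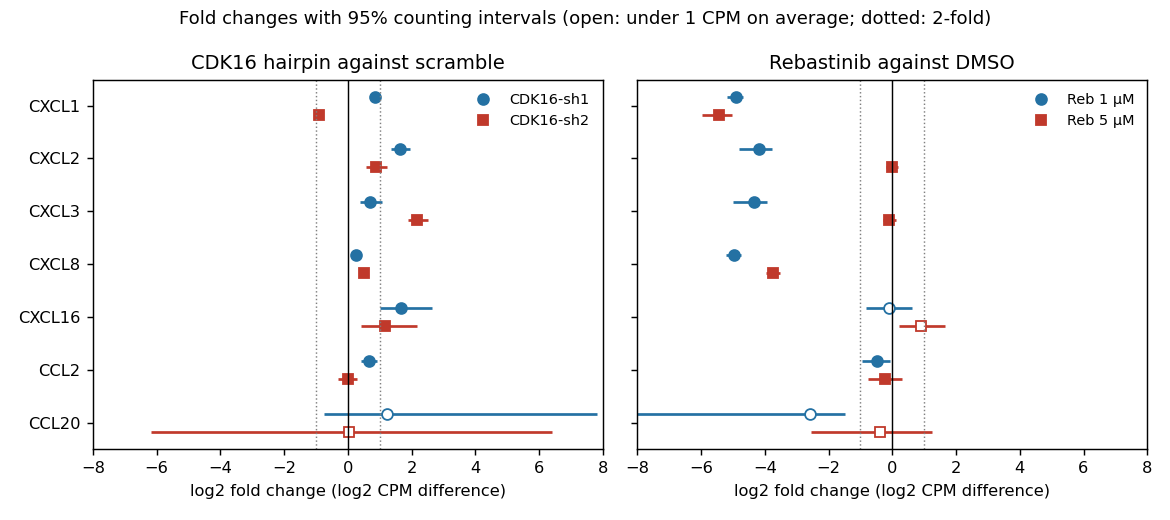
Log2 fold changes of the 7 chemokines against their own control library, with 95% counting intervals. Reb values of CXCL1 and CXCL8 lie far left at both doses, those of CXCL2 and CXCL3 only at 1 µM, and the hairpin values lie mostly between 0 and 2 with CXCL1 on both sides of 0.

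The group was chosen on Reb values and not on the knockdown experiment, though with earlier results of these data known. The knockdown experiment asks whether lower CDK16 itself goes with a change in these genes. With both hairpins as 1 group against scramble, no chemokine passed the test. CXCL3 had a log2 fold change of 1.64 and ranked 126 of 15295 genes by p, CXCL2 had 1.33 and ranked 334, and CXCL16 had 1.55 and ranked 633. CXCL8, CCL2 and CXCL1 had 0.39, 0.36 and 0.23, with ranks of 6103, 7433 and 9241. The adjusted p was 1.00 for all 6 (edgeR's quasi-likelihood test, Benjamini-Hochberg over all genes tested). The test called 0 of all genes (0%), with 382 at an unadjusted p under 0.05, and DESeq2 also called 0, with 233 under 0.05. In data drawn from the means of these libraries with a coefficient of variation of 0.1, it recovered 199 of 200 genes changed by 3 on the log2 scale. With a coefficient of 0.4 it recovered 118. The drawn change was the same in both hairpins and larger than that of any chemokine here. The recovery therefore does not cover changes of the size seen in these genes. CDK16, the targeted gene, was not called either, so the lack of calls cannot show that the chemokines were unchanged.

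Single hairpins gave different patterns. CXCL1 had 2303 counts with scramble, 5040 with CDK16-sh1 and 1145 with CDK16-sh2, or 84.6, 153 and 45.3 CPM. CDK16-sh1 was above scramble by 0.85 (0.78 to 0.92) and CDK16-sh2 below it, at −0.90 (−1.005 to −0.80), although CDK16 was below scramble with both. CXCL3 had 103, 205 and 441 counts, or 3.78, 6.22 and 17.4 CPM, with log2 fold changes of 0.71 (0.37 to 1.07) and 2.18 (1.89 to 2.53). CXCL2 had 121, 461 and 211 counts, or 4.44, 14.0 and 8.35 CPM, with 1.64 (1.36 to 1.95) and 0.90 (0.58 to 1.24). CXCL2 was thus highest with CDK16-sh1 and CXCL3 with CDK16-sh2. The RPKM ratio of CXCL3 to CXCL2 was 0.575 (0.438 to 0.755) with scramble, 0.301 (0.254 to 0.355) with CDK16-sh1 and 1.41 (1.20 to 1.67) with CDK16-sh2, and no pair of these intervals overlapped.

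CXCL8 had 722, 1048 and 951 counts, or 26.5, 31.8 and 37.6 CPM. Its log2 fold changes were 0.26 (0.12 to 0.40) and 0.50 (0.36 to 0.65), and both hairpin libraries lay above scramble by less than 2-fold. CXCL16 had 17, 71 and 38 counts, with 1.68 (1.01 to 2.64) and 1.18 (0.41 to 2.19), and was the single chemokine past 2-fold higher with each hairpin. By library totals it was 0.996 with CDK16-sh2, just under 2-fold. CCL2 had 207, 395 and 191 counts, with 0.65 (0.41 to 0.91) and −0.01 (−0.30 to 0.28). CCL20 had 1, 6 and 1 counts, too few to compare.

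Directly between the hairpins, CDK16-sh2 was below CDK16-sh1 for CXCL1 by −1.75 (−1.85 to −1.66), for CXCL2 by −0.74 (−0.99 to −0.51) and for CCL2 by −0.66 (−0.92 to −0.41). It was above CDK16-sh1 for CXCL3 by 1.48 (1.25 to 1.73) and for CXCL8 by 0.24 (0.12 to 0.37), 0.08 by library totals. CXCL16 differed by −0.50, with an interval of −1.13 to 0.07 that included 0. CXCL1 remained the most abundant chemokine per length in all 3 hairpin libraries, at 68.8, 122 and 32.1 RPKM.

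With CDK16-sh1, 2 of the 6 chemokines that passed the filter (CXCL2 and CXCL16) were at least 2-fold higher, against 4.33% of all 15295 genes, and 0 were at least 2-fold lower, against 6.86%. With CDK16-sh2, 2 of 6 (CXCL3 and CXCL16) were higher, against 2.2%, and 0 were lower, against 7.62%. CXCL16 passed the filter only through the hairpin libraries, so the filter favoured its place in both counts of higher genes. The median of the 6 was 0.78 and 0.70, with medians of all genes of −0.0018 and 0.02. By library totals 1 chemokine, CXCL1, was past 2-fold lower with CDK16-sh2 and 1, CXCL3, was past 2-fold higher. Both hairpins share the same scramble library.

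Levels in the scramble and DMSO libraries came from separate tables and were not tested against each other. CXCL1 was 68.8 RPKM with scramble and 59.1 with DMSO, and CXCL2 was 3.12 and 8.77. CXCL3 was 1.80 and 6.13, CXCL8 was 12.3 and 43.4, and CCL2 was 4.03 and 1.06.

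The neighbours of CXCL1 on chromosome 4 were examined within 1000 kb on either side, where 28 symbols lay and 10 passed the filter in each experiment. The 6 that are not chemokines of the group were COX18, ANKRD17, MTHFD2L, RP11-629B11.5, EREG and AREG. At 1 µM their log2 fold changes lay between −0.02 and 0.48, and those of the 4 chemokines between −4.96 and −4.17. MTHFD2L, a mitochondrial folate enzyme that starts 244.8 kb from CXCL1, beyond CXCL2, had 282 counts with DMSO, 282 at 1 µM and 405 at 5 µM. At 5 µM it was 1.62 above DMSO, EREG and RP11-629B11.5 were 1.67 and 1.55 above it, and AREG was 0.78 below it. EREG and AREG encode the EGFR ligands epiregulin and amphiregulin. With CDK16-sh2 AREG had 132 counts against 308 with scramble, a log2 fold change of −1.11, beside the −0.90 of CXCL1. Among the other chemokines of the cluster, CXCL5 had 22 counts with DMSO, 2 at 1 µM and 0 at 5 µM, and CXCL6 and PPBP had 0 counts in the knockdown libraries.

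**Figure D3:**
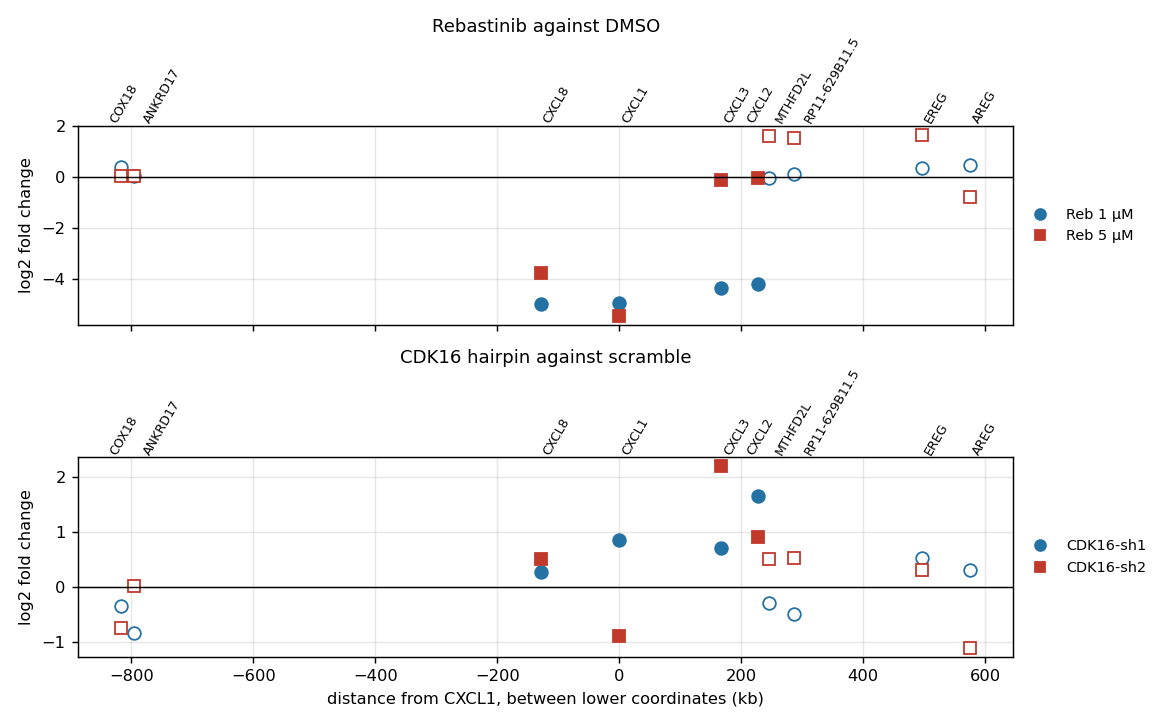
Log2 fold change against distance from CXCL1 in kb for the 10 genes of chromosome 4 that passed the filter, with filled symbols for the chemokines of the group and open symbols for the other 6 genes. In the upper panel the 4 chemokines lie below −4 at 1 µM while the other genes lie near or above 0.

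The genes with fold changes nearest to those of CXCL1 were sought among 10553 others that averaged 5 CPM or more in each experiment. Likeness was the Euclidean distance over the 4 log2 fold changes, 2 of each experiment, which share their control libraries and include those the group was chosen on. The nearest to CXCL1 were IL11 (distance 2.24), CXCL8 (2.29), IL1B (2.95), CSF2 (3.05), CSF3 (3.36), IRAK2 (3.45), RCSD1 (3.62) and PLAU (3.70). IL11, a cytokine of the IL-6 family, had 3139, 326 and 86 counts with DMSO, 1 µM and 5 µM. It had 655, 2311 and 333 with scramble, CDK16-sh1 and CDK16-sh2, and so was above scramble with CDK16-sh1 and below it with CDK16-sh2, as CXCL1 was. CSF2 (GM-CSF) had 678, 78 and 16 counts in the Reb libraries and 174, 1332 and 192 in the hairpin libraries.

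The nearest to CXCL8 were IL1B (1.94), CSF3 (2.27), CXCL1 (2.29), IL11 (2.54), FBXO32 (2.75), CSF2 (3.07), PLAU (3.13) and C10orf55 (3.32). Exons of C10orf55 overlap those of PLAU, the urokinase gene, on the opposite strand, so these 2 may share reads. CSF3 had 1247, 51 and 24 counts in the Reb libraries and 114, 365 and 517 in the hairpin libraries. FBXO32, a ubiquitin ligase subunit, had 805, 136 and 69 and then 407, 744 and 492.

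The receptors for these ligands were scarce. CXCR2, the receptor of the ELR+ group, had 0 to 2 counts in every library, CCR2 0 to 7, CCR6 0 to 5 and CXCR6 2 to 20. Only CXCR4, CXCR5 and CCR10 of the 18 signalling receptors passed the filter, in both experiments. CXCR4, the CXCL12 receptor, had 811, 850 and 551 counts in the hairpin libraries and 548, 358 and 271 in the Reb libraries, with log2 fold changes between −0.63 and 0.09. CCR10 had 218, 111 and 122 counts in the hairpin libraries, and was 1.23 below scramble with CDK16-sh1 on the log2 scale. CXCR5 shares exons with BCL9L and CCR10 with CNTNAP1 on opposite strands, so their counts are uncertain. Of the atypical receptors, all of those that passed are given, some outside the naming rule. CCRL2, which binds chemerin, had 490, 230 and 20 counts in the Reb libraries, log2 fold changes of −1.11 and −3.43, and 382, 722 and 218 in the hairpin libraries. PITPNM3, a proposed CCL18 receptor, had 1891, 3159 and 269 and then 854, 1254 and 161. ACKR4, a scavenging receptor, had 38, 99 and 16 counts in the Reb libraries.

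Other ligands were rare. The genes listed were 5 set beside the ELR+ group, 7 other CXC and 29 other CC, XC and CX3C genes. Of the 5, PF4 and PF4V1 lack the ELR motif. Only CCL28, a mucosal chemokine, passed the filter, in both experiments. CCL28 had 66, 121 and 32 counts in the Reb libraries and 61, 65 and 19 in the hairpin libraries, where CDK16-sh2 was below scramble by −1.49. CXCL11 had 20, 13 and 18 counts in the hairpin libraries, and CXCL10 and CXCL12 had 0 or 1 there.

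Proteases that act on chemokines went different ways. MMP9 (gelatinase B), which trims CXCL8, had 1570 counts with DMSO, 147 at 1 µM and 208 at 5 µM, log2 fold changes of −3.42 and −1.80. DPP4, which removes dipeptides from several chemokines, had 133, 362 and 153 counts, changes of 1.40 and 1.29. ADAM10, the CXCL16 sheddase, had 2106, 1540 and 768 counts in the hairpin libraries, log2 fold changes of −0.73 and −1.35. At 1 µM 3 of the 8 proteases that passed were past 2-fold lower and 1 higher, and at 5 µM 2 were lower and 4 higher, or 2 higher by library totals. Over all genes the shares were 1.92% lower and 1.28% higher at 1 µM, and 27.2% and 23.6% at 5 µM, so that 2 of 8 lower at 5 µM is near the share of all genes. MMP9 overlaps another transcript on the opposite strand.

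Among upstream cytokines, IL1B and IL1A, which are known inducers of CXCL1 and CXCL8, were low with Reb. IL1B had 9469 counts with DMSO, 742 at 1 µM and 177 at 5 µM, log2 fold changes of −3.69 and −4.62. IL1A had 297, 36 and 1 counts. IL6 had 1800, 95 and 356, with −4.23 and −1.23, and thus was low at 1 µM and less so at 5 µM. Of the 14 genes of this list that passed, 3 were past 2-fold lower at 1 µM (these 3) and 0 higher, with a median of −0.10, against 1.92% and 1.28% of all genes. At 5 µM 9 were lower and 2 higher (0 higher by library totals), with a median of −1.47, against 27.2% and 23.6% of all genes. IL1A, at 5.09 CPM with DMSO and 0.607 and 0.037 with Reb, passed the filter only through the DMSO library. The filter thus favoured its place among the lower genes. IL6R, the IL-6 receptor, had 272, 484 and 207 counts, with 0.80 and 0.71. Exons of IL6 overlap another transcript on the opposite strand. In the hairpin libraries IL6 had 81, 753 and 149 counts, log2 fold changes of 2.91 and 0.97, and IL1B, given here for its Reb values, had 120, 86 and 242. IL1R1, the IL-1 receptor, had 58, 49 and 27.

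NF-kB and MAPK-linked regulators of chemokine transcription all passed the filter. This list, like the others, was drawn up with earlier results of these data known. The 1 µM contrast and its DMSO library are also those on which the chemokines were chosen. Nothing is therefore read from how many of its genes were past 2-fold. At 1 µM 13 of 28 were past 2-fold lower and 0 higher (11 and 0 by library totals), with a median of −0.88. The shares over all genes were 1.92% and 1.28%. At 5 µM 11 were lower and 7 higher, or 17 and 6 by library totals, against 27.2% and 23.6% of all genes, and the 7 higher are near that share. RELB, an NF-kB subunit, had 513, 109 and 24 counts, log2 fold changes of −2.23 and −3.25. NFKBIA, which encodes the inhibitor IkBα and is an NF-kB target, had 3754, 1222 and 535 counts, with −1.64 and −1.70. BCL3, a nuclear IkB protein, had 525, 172 and 71 counts, with −1.62 and −1.76. TRAF1, an adaptor of TNF receptors and an NF-kB target, had 655, 290 and 42 counts, with −1.19 and −2.82.

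Some regulators were low at 1 µM and high at 5 µM, and those named here were chosen after their values were seen. EGR1, an immediate-early factor, had 1722 counts with DMSO, 171 at 1 µM and 5290 at 5 µM. FOS had 626, 106 and 1476, and JUNB had 1465, 670 and 4497. NFKB1 had 2285, 1965 and 5152, and so was near DMSO at 1 µM. No test relates these levels to those of CXCL2 and CXCL3.

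With CDK16-sh1, 12 of the 28 regulators were past 2-fold higher and 0 lower (median 0.79), against 4.33% and 6.86% of all genes. With CDK16-sh2 3 were higher and 2 lower (median 0.14), or 2 higher and 3 lower by library totals, against 2.2% and 7.62% of all genes. CEBPD, a C/EBP factor, had 83, 323 and 213 counts, log2 fold changes of 1.66 and 1.45. FOSL1, the AP-1 factor Fra-1, had 22090, 60375 and 51293, with 1.17 and 1.32. TRAF1 had 478, 2392 and 984, with 2.04 and 1.15, and TNIP1, a partner of the NF-kB inhibitor A20, had 9285, 18635 and 15179, with 0.73 and 0.82. CEBPD, FOSL1 and TRAF1 were thus past 2-fold higher with each hairpin, except that TRAF1 was 0.95 with CDK16-sh2 by library totals.

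Of 12 factors that act on AU-rich mRNA, 1 was past 2-fold lower at 1 µM and 0 were higher, with a median of −0.21, against 1.92% and 1.28% of all genes. ZC3H12A, the RNase regnase-1, had 994, 361 and 381 counts, log2 fold changes of −1.48 and −0.27. ZC3H12C had 1208, 752 and 348, with −0.71 and −0.69. HNRNPD (AUF1) had 65373, 57527 and 9042, with −0.21 and −1.75. At 5 µM 2 were lower and 4 higher, or 4 and 2 by library totals, against 27.2% and 23.6% of all genes. In the hairpin libraries ZC3H12A had 268, 999 and 584 counts, log2 fold changes of 1.61 and 1.22, and ZFP36L1 had 3883, 7353 and 5114, with 0.64 and 0.50.

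**Figure D4:**
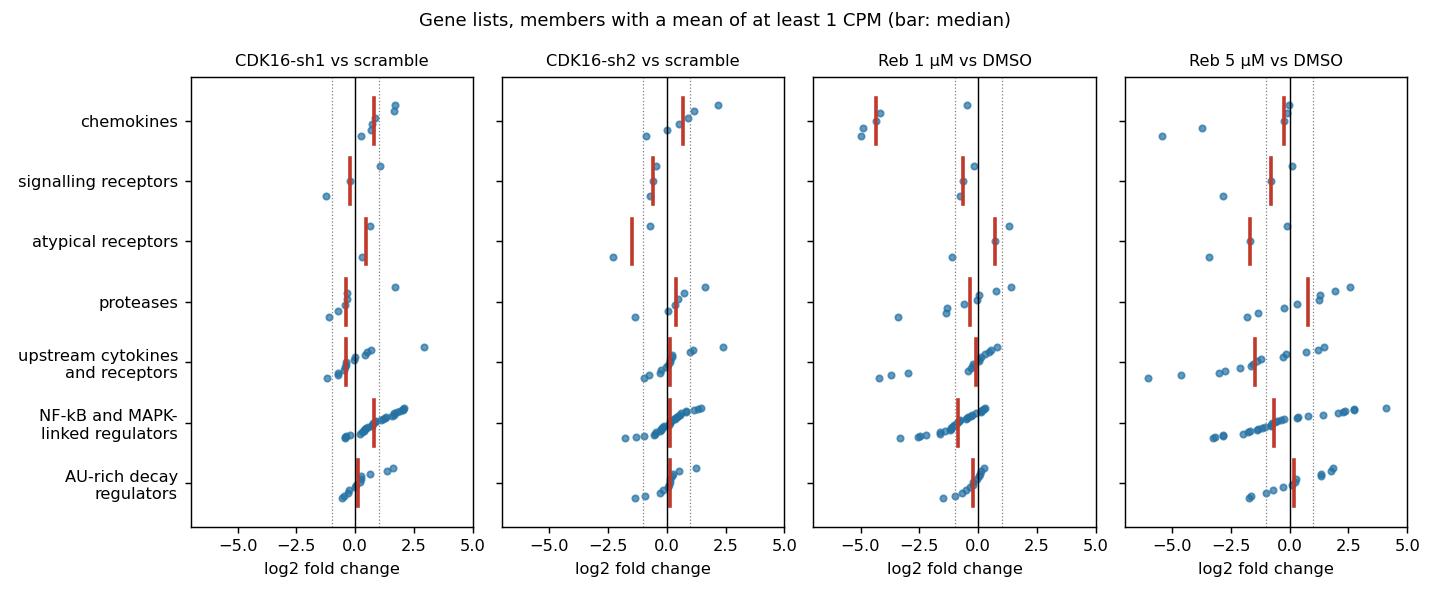
Log2 fold changes of the genes of each list that passed the 1 CPM filter, 1 point per gene, for the 4 comparisons, with a bar at the median and dotted lines at 2-fold. At 1 µM the chemokine median is −4.34, that of the NF-kB and MAPK-linked regulators is −0.88, and the other 5 lists drawn have medians between −0.63 and 0.72. The chemokines were chosen on their Reb values, so nothing is read from the place of their median beside those of the other lists. The other lists were drawn up with earlier results of these data known.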

How the data were processed

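The 7 genes and all gene lists were chosen with earlier results of these data known. Per the labels, libraries came from a stranded mRNA kit, and the submitters' processing notes name Trimmomatic, featureCounts, Subread 1.5.1 and GRCh38. The aligner, the strand setting and the annotation release are not given in the sources used here. The authors deposited raw read counts per gene symbol, without normalization, and RPKM values that they calculated from the same counts, gene length and library total. Genes averaging 1 CPM or more over the 3 libraries were tested, 15295 in the knockdown and 15655 in the Reb table. TMM factors were computed over these genes in edgeR 4.0.16 (R 4.3.3), and log2 fold changes were taken from log2 CPM with a prior count of 2. TMM factors over the whole table were also tried, an alternative chosen after the data were seen. Intervals are 95% Clopper-Pearson (SciPy 1.17.1).

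The 1 test was edgeR's quasi-likelihood test of both hairpins as 1 group against scramble, with the difference between hairpins as the spread, with calls at an adjusted p up to 0.05 and a 2-fold change or more. It was tested on simulated data. DESeq2 1.42.0 was an alternative. P-values measure the spread between libraries only. Text names all 7 genes, up to 4 per list by the smaller change of the 2 treated libraries where both had 1 sign, other ligands that passed, the 8 nearest patterns to CXCL1 and to CXCL8, genes within 1000 kb of CXCL1, and CDK16. Additional genes are given as counts. Exon overlaps were read from the coordinates in the deposited count tables. CXCL16 and CCL2 had no promoter entry.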

Additional observations from a re-analysis of the deposited data

Results flagged for a closer look

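CXCL1 moved in opposite directions with the hairpins. It was above scramble with CDK16-sh1 (0.85 on the log2 scale) and below it with CDK16-sh2 (−0.90), and both counting intervals left out 0. Each hairpin has 1 library and the difference between the hairpins was not tested against replicate spread.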

How the results depend on the processing

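No paired analysis was possible because each condition has 1 library. Of the log2 fold changes of single comparisons of genes that passed the filter, none past 2-fold changed sign under DESeq2 size factors, library totals, RPKM with 0.1 added, a prior count of 0.5 or TMM factors over the whole table. At 5 µM library totals moved the chemokines that passed by −0.67 to −0.69, and CXCL16 from 0.90 to 0.24. Counts of chemokines moved under some settings. Without a filter on low counts 3 in place of 2 were higher with CDK16-sh1 and 5 in place of 4 lower at 1 µM. By library totals and by RPKM, CDK16-sh2 had 1 lower and 1 higher in place of 0 and 2. At a 4-fold threshold 0 were higher with CDK16-sh1 and 1 with CDK16-sh2. The joint test called 0 genes under each of 5 alternatives. With both hairpins as 1 group, leaving out 1 hairpin gave values of −0.90 (without CDK16-sh1) to 0.85 (without CDK16-sh2) for CXCL1 and −0.0092 to 0.65 for CCL2, so CDK16-sh1 decides both directions. Counts of all genes moved most. Without that filter, lower and higher counts were 2666 and 2232 (CDK16-sh1), 3222 and 1897 (CDK16-sh2), 2249 and 2440 (1 µM) and 7405 and 9042 (5 µM). At 4-fold they were 67 and 34, 166 and 8, 53 and 10, and 1580 and 1272. By library totals 152 were higher with CDK16-sh2 and 6792 lower and 1835 higher at 5 µM, and by RPKM 123, 6490 and 1734. Depth limits CCL20 and CXCL16, with 0 to 12 and 17 to 71 counts.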
